A study of Mus musculus with 6 samples.

Results

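The Vcan+ monocytes of mouse prostate tumours are described here, cell by tumour and gene by gene. They were the cells to which the authors' deposited table of cells gave the class Mono_Vcan+, 459 of 5749 cells. All 459 cells came from 1 of the 22 deposited cluster numbers, and the table held 19 classes in all.

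Monocytes are white blood cells that leave the bone marrow for the blood and enter inflamed tissue and tumours, where many become macrophages or dendritic cells. Classical mouse monocytes carry Ly6c2 and the chemokine receptor Ccr2, and they often make Vcan (versican, a large matrix proteoglycan), Chil3 (a chitinase-like lectin) and Plac8. In tumours such cells can present antigen, answer interferon, restrain T cells or be a source of suppressive macrophages.

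The tumours were of PPS-ICBR, a line of prostate cancer cells resistant to immune checkpoint blockade (ICB), in C57Bl6 mice. Every group carried this same resistant line. The BD group was fed chow mixed with 1,3-butanediol, an alcohol that the liver turns into the ketone body β-hydroxybutyrate, and the SD group was fed standard chow. The BD+ICB group had the butanediol chow together with PD-1 and CTLA-4 blockade at a listed 0.2 mg, biweekly, and the ICB group had the blockade without butanediol. The labels give no age, sex or time, and no isotype control is named. The question set by the series' title is whether a ketone-raising diet reverts acquired resistance to immunotherapy.

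Each group held 3 tumours, and each tumour carried its own hashtag antibody. The BD and SD tumours were pooled in 1 library and the BD+ICB and ICB tumours in another, so blockade and library cannot be told apart, whereas each diet comparison lay within a library. Leukocytes were taken from a Percoll gradient, so the shares below are shares of recovered cells. The tumours of the butanediol groups were the smaller ones: the listed sizes, for which no unit is given, ran from 172 to 203 in BD and from 870 to 2348 in SD, and from 23 to 90 in BD+ICB and from 289 to 1116 in ICB. Diet, tumour size and the set of hashtags therefore moved together, and their parts in the results were not tested. The labels name different tumours but no mice, so p-values measure the spread between these tumours.

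The Vcan+ monocytes were unevenly spread. The BD tumours held 5, 2 and 5 of them and the SD tumours 9, 10 and 5, whereas the BD+ICB tumours held 83, 73 and 79 and the ICB tumours 36, 31 and 121. The median cell had 10527 unique molecular identifiers (UMIs, each standing for 1 captured RNA molecule). Summed over a tumour's Vcan+ monocytes, the depth ran from 13279 UMIs in BD 2 to 48133 in BD 3, from 32157 to 71053 in SD, from 741960 to 893289 in BD+ICB and from 314516 to 1231148 in ICB. What could be read of the unblocked tumours was thus limited by a handful of cells. The 2 libraries shared 1931 barcodes, but only 3 of the Vcan+ monocytes carried such a barcode, and 0 were shallow copies of a deeper barcode in the other library.

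The class carried the markers of its name. Levels were CPM, the UMI counts of a gene scaled to the same total depth in every sum, taken per tumour and averaged over the 7 tumours with at least 10 Vcan+ monocytes. Of the 18 classes with such a tumour, the Vcan+ monocytes had the highest mean for Chil3 (1860 ± 2147 CPM, SD), for Plac8 (3459 ± 1567 CPM) and for Thbs1, which encodes thrombospondin (4487 ± 1097 CPM). The Chil3 mean leaned on SD 2, at 6661 CPM; the other 6 tumours ran from 482.5 to 1552 CPM and averaged 1059 ± 387 CPM. Hp, the haemoglobin-binding haptoglobin, averaged 440 ± 146 CPM and lay below Cxcr2+ neutrophils, at 748 CPM. Vcan itself averaged 388 ± 90.0 CPM, behind mesenchymal cells at 711 CPM and proliferating cancer cells at 420 CPM, and was the highest of any white cell class. Thbs1 was close to its level in Ifit+ neutrophils (4429 CPM). The classes were clustered on these same genes, so the levels are a description and no test was made.

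**Figure D1:**
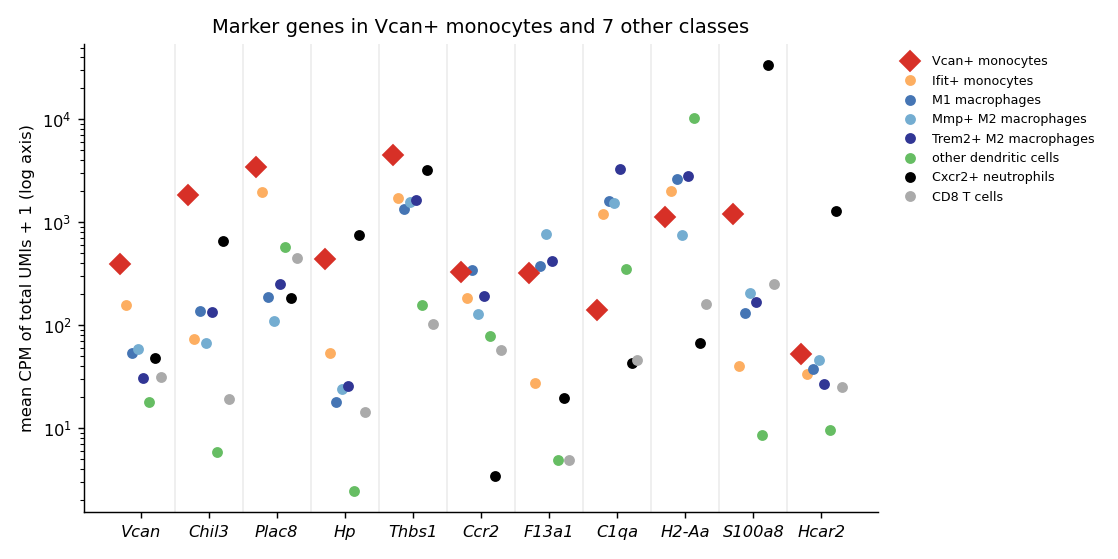
Mean level of 11 genes (CPM of total UMIs plus 1, log axis) in the Vcan+ monocytes (red diamonds) and 7 other classes (circles), each point being the mean over tumours with at least 10 cells of the class. The diamonds lie on top for Chil3, Plac8 and Thbs1 and far below the macrophage classes for C1qa, the first chain of complement C1q.

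Genes of the classical monocyte were present beside them. Ccr2, the receptor that draws monocytes to CCL2, averaged 325 ± 38.5 CPM, below regulatory T cells at 646 CPM and close to the 343 CPM of M1 macrophages. Ly6c2 averaged 368 ± 78.7 CPM, below CD8 T cells at 679 CPM and Ifit+ monocytes at 517 CPM. F13a1, the A chain of clotting factor XIII, averaged 319 ± 180 CPM and was higher in Mmp+ M2 macrophages, at 763 CPM. Mature macrophage genes were low: C1qa averaged 138 ± 112 CPM, against 3287 CPM in Trem2+ M2 macrophages. H2-Aa, a chain of MHC class II, averaged 1126 ± 451 CPM, against 10309 CPM in the dendritic cells of no named subset. Genes of nonclassical monocytes gave a mixed picture. Nr4a1, the factor on which those cells depend, averaged 86.9 ± 23.3 CPM, rank 16 of 18 classes. Of the 13 genes of that list, 4 were highest in the Vcan+ monocytes, all at low levels: Ace, angiotensin-converting enzyme (35 ± 22.3 CPM, against 8.01 CPM in mesenchymal cells), Adgre4 (26.1 ± 14.2 CPM, against 4.29 CPM in Nos2+ dendritic cells), Cd300e (11.5 ± 12.6 CPM, against 4.90 CPM in NK cells) and Pou2f2 (86.7 ± 45.6 CPM, against 83.6 CPM in CD4 T cells).

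In single cells the 5 genes Vcan, Chil3, Plac8, Hp and Thbs1 were mostly found together. At least 3 of them had a UMI in 402 of the 459 Vcan+ monocytes (87.6%), all 5 had one in 166 (36.2%), and 4 cells had none. The same count of 3 or more was reached by 46.9% of Ifit+ monocytes, 33.1% of M1 macrophages, 12.6% of Trem2+ M2 macrophages and 2.68% of CD8 T cells. Vcan had a UMI in 71.0% of Vcan+ monocytes and in 11.6% of CD8 T cells, a class that should lack it, at median depths of 10527 and 6263 UMIs. Chil3 had a UMI in 68.0% of Vcan+ monocytes and 1.43% of CD8 T cells. Cd3e, a chain of the T cell receptor complex, had a UMI in 1.53% of Vcan+ monocytes, and Retnlg, a gene of mature neutrophils, in 2.40%. S100a8, an alarmin that fills neutrophils, had one in 28.3% of Vcan+ monocytes and in 10.4% of CD8 T cells (median depths as above), so free RNA may give part of its level here. The share of cells with a Retnlg UMI was close to that in CD8 T cells, 2.15%. Its UMIs lay in 11 Vcan+ monocytes and were uneven: 17, 67 and 14 in the ICB tumours, against 0, 1 and 1 in the BD+ICB tumours. The source of these UMIs was not tested.

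Beyond the markers, 161 of the 2557 genes at 50 CPM or more were highest in this class. The gene furthest above every other class was Dmkn (dermokine, a secreted protein known from the epidermis), with 165 ± 64.8 CPM in Vcan+ monocytes and 16.3 CPM in the next class, dendritic cells of no named subset. Serpinb8, an intracellular protease inhibitor, had 106 ± 22 CPM, against 32.1 CPM in Mmp+ M2 macrophages. Saa3, an acute phase protein, had 997 ± 899 CPM, against 509 CPM in Ifit+ neutrophils. Other genes by the same rule were Tmem51, Ccl24 (a chemokine for eosinophils), Aldh2 (the mitochondrial aldehyde dehydrogenase), Lpar6, St3gal1, Stxbp3, Elk3, Mgst1, Havcr2 (which encodes TIM-3) and Spint1. Aldh2 stood at 148 ± 28.8 CPM, against 75.9 CPM in Trem2+ M2 macrophages.

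As a share of all cells recovered from a tumour, the Vcan+ monocytes did not differ by diet beyond the spread between tumours. Under blockade they made up 14.5%, 11.2% and 15.6% in BD+ICB tumours (13.8 ± 2.27%, SD, n = 3), against 4.33%, 5.45% and 13.2% in ICB tumours (7.68 ± 4.86%, SD, n = 3). The groups overlapped, since ICB 3 lay above BD+ICB 2. The difference was 6.09 percentage points (two-sided exact permutation p = 0.2, adjusted p = 0.422 over the 19 classes), and 0.1 is the smallest p that 3 against 3 tumours allow. Without ICB 3, which had the smallest tumour of its group, the difference was 8.88 points with no overlap (exact p = 0.1, the smallest possible with 3 against 2). This was the largest of the differences without 1 tumour. The others ran from 4.42 points without ICB 1 to 7.37 points without BD+ICB 2 (exact permutation p of 0.3 and 0.2).

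Without blockade the shares were low on both diets. They were 1.65%, 2.86% and 4.27% in BD tumours (2.93 ± 1.31%, SD, n = 3), against 2.16%, 3.60% and 0.960% in SD tumours (2.24 ± 1.32%, SD, n = 3), a difference of 0.687 points (exact permutation p = 0.6). The 95% Wilson intervals, which cover counting error only, were wide here, from 0.787% to 9.83% in BD 2. Over both libraries, with diet labels permuted within each, the diet difference was 3.39 points (exact p = 0.105, adjusted p = 0.1995). It was largest without ICB 3, at 4.78 points (exact p = 0.04, adjusted p = 0.152). Without any other tumour it ran from 2.55 points (without ICB 1) to 4.03 points (without BD+ICB 2), with exact permutation p from 0.07 to 0.215. The diet difference in the blockade library was not shown to exceed that in the other library (5.40 points, exact permutation p = 0.245). Every tumour of the blockade library had a higher share than any tumour of the other library, if only just (4.33% in ICB 1, 4.27% in BD 3), and library and blockade cannot be told apart. The separation did not hold among cells that were not neutrophils (4.96% in ICB 1, 5.95% in SD 2). Nor did it hold among monocytes and macrophages (9.11% in ICB 1, 11.5% in SD 2) or with the droplets reassigned below (2.707% in ICB 1, 2.713% in BD 3).

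**Figure D2:**
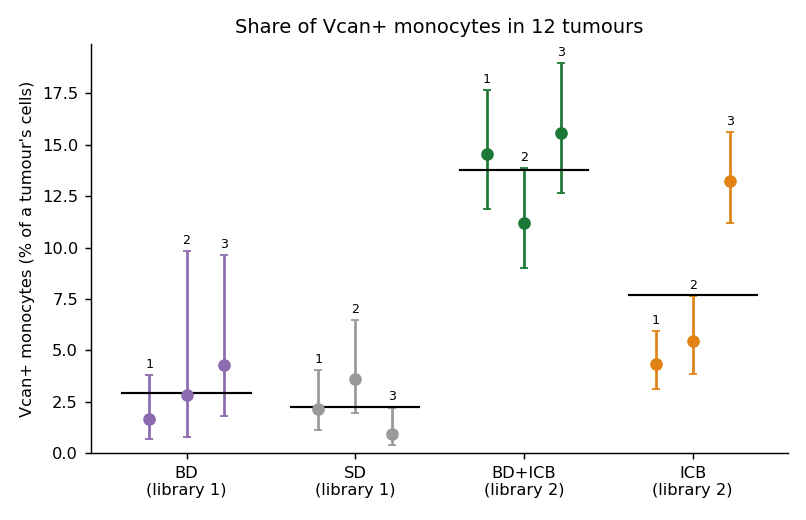
Share of Vcan+ monocytes among a tumour's cells (%), 1 point per tumour with its replicate number, its 95% Wilson interval and the group mean (black line). The BD+ICB tumours sit between 11.2% and 15.6%, 1 ICB tumour sits among them at 13.2%, and the BD and SD tumours sit below 4.5%.

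The cells kept in the table depended on their hashtag counts, and these moved with diet. The median hashtag count of Vcan+ monocytes was 767 to 1081 in BD+ICB tumours and 1674 to 2218 in ICB tumours, and 577 to 944 in BD tumours and 1542 to 1662 in SD tumours. The deposited table holds only cells with a hashtag total above 500. Among droplets reassigned without that limit, 77.4%, 92.1% and 89.3% of the Vcan+ monocytes of the BD+ICB tumours lay above it, against 100% in each ICB tumour. Over all classes 64.1%, 76.4% and 65.4% of droplets lay above it in BD+ICB tumours, against 61.9%, 73.9% and 81.8% in ICB tumours. With those droplets counted, the difference between BD+ICB and ICB was 5.03 points (exact permutation p = 0.2). Deposited cells kept the authors' class there, and only the added droplets took a class from nearest neighbours. Neutrophils made up 3.50%, 4.3% and 20.1% of cells in BD+ICB tumours, against 12.7%, 47.6% and 45.7% in ICB tumours. As a share of the cells that were not neutrophils, the difference was 2.16 points (exact p = 0.8), and that of diet over both libraries 1.26 points (exact p = 0.7). As a share of monocytes and macrophages alone the difference between BD+ICB and ICB was 8.09 points (exact p = 0.4), and the BD difference from SD turned to -1.79 points (exact p = 0.6).

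Among the diet comparisons within the Vcan+ monocytes, edgeR called the most genes between BD+ICB and ICB tumours. Of 7238 genes tested with edgeR's quasi-likelihood test, 13 were higher in BD+ICB (0.18% of genes tested) and 0 lower (0%), at an adjusted p of 0.05. At an unadjusted p of 0.05 the numbers were 368 higher and 295 lower. The genes called were B2m, Tapbp, Cd274, Isg15, Oasl1, Ifi205, Nampt, Ass1, Clic4, Creb5, Sdc3, Clec4n and Smpdl3b. In each of the 13 the 3 BD+ICB tumours lay above the 3 ICB tumours without overlap, as in either direction did 14.8% of all genes tested. With tumours of the same replicate number taken as blocks, 159 genes passed (2.2% of those tested), among them all 13. Of the 159, 104 were higher (1.44% of those tested) and 55 lower (0.76%). No label gives a reason to pair these tumours, so calls with this block, here and below, are an alternative and not added support.

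The number of calls depended on single tumours. Leaving out 1 tumour in turn gave between 0 and 37 genes: 0 without BD+ICB 1, 0 without ICB 2, 1 without BD+ICB 2, 7 without ICB 1, 17 without BD+ICB 3 and 37 without ICB 3. The direction of the 13 genes held in every alternative run. With groups that do not overlap, leaving out a tumour could hardly turn it, so this is no added support.

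Of the 13 genes, 5 belonged to the lists for MHC class I presentation and the interferon responses: B2m, Tapbp, Cd274, Isg15 and Oasl1. Levels here are normalised CPM, scaled by the trimmed mean of M values (TMM). B2m, the β2-microglobulin light chain of MHC class I, had 4569, 4659 and 4103 CPM in BD+ICB tumours, against 3090, 2965 and 3060 CPM in ICB tumours (log2 fold 0.55 ± 0.08 SE, edgeR adjusted p = 0.00429). Within each group the tumours lay close together. Tapbp, the chaperone tapasin that loads peptide onto class I, had 598, 575 and 568 CPM, against 297, 358 and 397 CPM (log2 fold 0.72 ± 0.13, edgeR adjusted p = 0.0257). Cd274, which encodes the checkpoint ligand PD-L1, had 403, 382 and 419 CPM in BD+ICB tumours, against 255, 200.5 and 231 CPM in ICB tumours (log2 fold 0.80 ± 0.14, edgeR adjusted p = 0.0246). PD-L1 binds the receptor that the PD-1 antibody blocks.

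Isg15, a ubiquitin-like protein made on interferon, had 602, 637 and 448 CPM in BD+ICB tumours, against 328, 322 and 363 CPM in ICB tumours (log2 fold 0.73 ± 0.14, edgeR adjusted p = 0.0397). Oasl1, a restrainer of Irf7 translation in mice, was rarer, with 109, 77.3 and 50.6 CPM, against 15.4, 36.2 and 19.3 CPM (log2 fold 1.88 ± 0.33, edgeR adjusted p = 0.0257), and had the largest fold of the 13. Ifi205, of the interferon-inducible family of DNA sensors, had 179, 188 and 160 CPM, against 37.4, 62.5 and 95.7 CPM (log2 fold 1.31 ± 0.24, edgeR adjusted p = 0.0321). Ifi205 shares sequence with its neighbours in that family, so reads could be split between them.

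**Figure D3:**
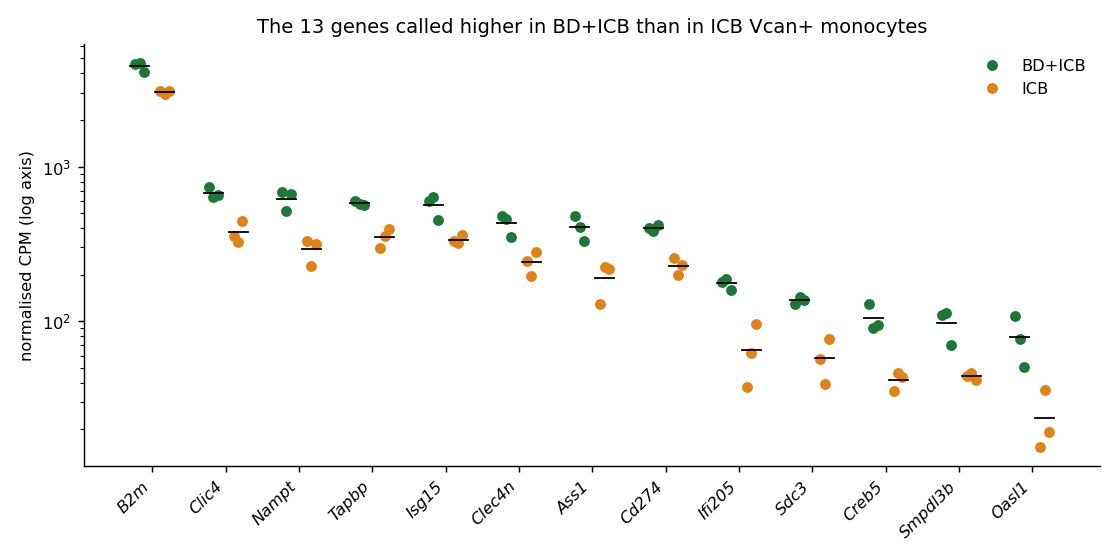
Normalised CPM (log axis) of the 13 genes called higher in BD+ICB than in ICB Vcan+ monocytes, 1 point per tumour (n = 3 a group) and the group mean as a black line. The groups do not overlap in any of the 13, and B2m is the most abundant, at 4444 and 3038 CPM on average.

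The promoters of these genes were searched for GAAA, any 2 bases and GAAA again, the core of the interferon-stimulated response element, on both strands, in windows of 250 bases before to 50 after the gene's start. RefSeq windows (GRCm38.p6) were found for 12 of the 13 genes. The motif lay in those of Isg15, B2m and Ifi205, and in 3.44% of all 32851 windows in that table. TTC, any 3 bases and GAA, the core of the gamma-activated site, lay in the windows of 0 of the 12 and in 8.30% of all windows. The windows with the first motif are shown 5′ to 3′ on the gene's strand, matches in capitals, because they carry the class I and interferon genes just described. A match is a run of letters and not a shown binding site.
Isg15 (chr4:156200769-156201068, minus strand): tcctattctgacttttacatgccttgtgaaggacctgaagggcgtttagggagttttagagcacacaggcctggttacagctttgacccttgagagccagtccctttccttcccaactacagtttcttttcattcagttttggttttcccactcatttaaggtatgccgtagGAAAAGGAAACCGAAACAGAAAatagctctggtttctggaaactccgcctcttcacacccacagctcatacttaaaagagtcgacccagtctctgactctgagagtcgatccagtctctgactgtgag
B2m (chr2:122147437-122147736, plus strand): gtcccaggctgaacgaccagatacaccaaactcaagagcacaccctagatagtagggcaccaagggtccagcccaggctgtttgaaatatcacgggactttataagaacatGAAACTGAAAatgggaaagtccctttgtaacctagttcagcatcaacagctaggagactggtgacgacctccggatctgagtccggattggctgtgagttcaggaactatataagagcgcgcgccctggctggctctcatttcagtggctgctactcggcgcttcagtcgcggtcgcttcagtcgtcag
Ifi205 (chr1:174031706-174032005, minus strand): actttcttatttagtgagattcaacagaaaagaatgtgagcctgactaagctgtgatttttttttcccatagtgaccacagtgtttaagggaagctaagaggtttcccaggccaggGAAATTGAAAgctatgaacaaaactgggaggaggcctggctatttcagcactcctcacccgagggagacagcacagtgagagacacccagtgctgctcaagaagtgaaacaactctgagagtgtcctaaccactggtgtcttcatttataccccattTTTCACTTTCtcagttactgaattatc
In Isg15 3 overlapping matches form 1 run, which starts 78 bases before the gene's start, and in B2m the single match starts 139 bases before it. Ifi205 has a match 134 bases before the start and another, on the other strand, whose first base is 23 bases past it.

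The other 7 genes have varied roles. Nampt, the rate-limiting enzyme of NAD salvage, had 681, 517 and 664 CPM in BD+ICB tumours, against 332, 227 and 317 CPM in ICB tumours (log2 fold 1.07 ± 0.15, edgeR adjusted p = 0.00429). Nampt was also the gene that passed most often, in 16 of 18 alternatives. These are not separate checks. The fits with at least 20 cells, with only the library's tumours and without SD 2 used the same tumours. The replicate block is counted too. Ass1, argininosuccinate synthase, which rebuilds arginine from citrulline, had 480, 406 and 333 CPM, against 130, 223.5 and 216.5 CPM (log2 fold 1.09 ± 0.19, edgeR adjusted p = 0.0257). Clic4, an intracellular chloride channel protein, averaged 676 ± 50.5 CPM in BD+ICB and 375 ± 62.8 CPM in ICB tumours (log2 fold 0.83). Creb5, a transcription factor of the CREB family, averaged 104 ± 21.1 CPM in BD+ICB and 41.6 ± 5.68 CPM in ICB tumours (log2 fold 1.32). The remaining genes were Sdc3 (syndecan-3, log2 fold 1.12), Smpdl3b (a lipid-modulating phosphodiesterase that dampens Toll-like receptor signals, log2 fold 1.17) and Clec4n (dectin-2, a receptor for fungal mannans, log2 fold 0.82), with adjusted p-values from 0.0257 to 0.0397.

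Gene lists showed how far these genes stood for their groups. Of all 7238 genes, 3496 had a positive fold and the median log2 fold was -0.01. Of 19 tested genes of the interferon-gamma response, 1 passed (Cd274) and all 19 folds were positive, with a median of 0.68. Among those that did not pass were Gbp2, a GTPase that attacks pathogen vacuoles (1358 ± 184 CPM in BD+ICB and 838 ± 225 CPM in ICB, log2 fold 0.68, edgeR adjusted p = 0.254), and the chemokine gene Cxcl9, which draws T cells (log2 fold 1.40, edgeR adjusted p = 0.729). With the replicate block 7 of the 19 passed, all higher, among them Cd274, Gbp2 and Gbp5. Irf1, an early target of interferon-gamma, had a log2 fold of 0.10 and did not pass.

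Of 18 tested genes of the type I interferon response, 2 passed (Isg15 and Oasl1), 15 folds were positive and 3 negative, and the median was 0.52. Ifit1, Ifit2 and Ifit3, which sit among the strongest targets of type I interferon, had log2 folds of 0.29, -0.33 and -0.78 at mean levels of at most 26.9 CPM in either group, and none passed. Of 17 genes of MHC class I presentation, 2 passed (B2m and Tapbp), 13 folds were positive and the median was 0.32. The heavy chain H2-K1 averaged 1600 ± 99.5 CPM in BD+ICB and 1283 ± 55.1 CPM in ICB tumours (log2 fold 0.32, edgeR adjusted p = 0.175). H2-K1 passed with the replicate block, as did Tap1 and H2-T23, giving 5 of 17. All 9 genes of MHC class II presentation had positive folds (median 0.63) and 0 passed. Cd74, the invariant chain, had 5468, 3993 and 3722 CPM in BD+ICB tumours, against 2951, 2748 and 2829 CPM in ICB tumours, without overlap (log2 fold 0.63, edgeR adjusted p = 0.0943), and passed with the block.

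**Figure D4:**
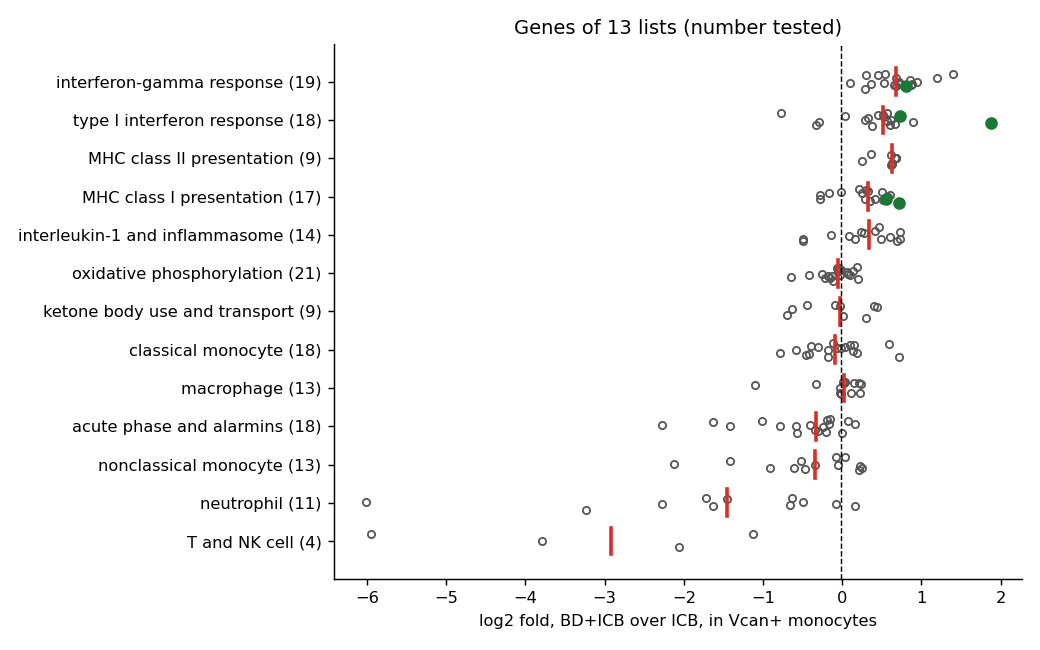
Log2 folds of BD+ICB over ICB in Vcan+ monocytes for the tested genes of 13 lists (numbers in brackets), filled green where the adjusted p was under 0.05 and open otherwise. Red bars are list medians and the dashed line is the median of all genes, -0.01; the interferon-gamma genes lie to the right of it and the neutrophil genes mostly to the left.

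Genes of suppression gave a mixed reading. In the list of suppressive myeloid genes 1 of 18 passed (Cd274) and 11 folds were positive. Nos2, inducible nitric oxide synthase, had 178, 83.0 and 158 CPM in BD+ICB tumours, against 28.6, 19.7 and 64.6 CPM in ICB tumours, without overlap (log2 fold 1.64, edgeR adjusted p = 0.252), and passed with the replicate block. Arg1, arginase-1, averaged 707 ± 207 CPM in BD+ICB and 603 ± 203 CPM in ICB tumours and did not pass. Il1b, the inflammatory cytokine interleukin-1β, averaged 4334 ± 1216 CPM in BD+ICB and 3153 ± 663 CPM in ICB tumours and did not pass.

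No gene passed as lower in BD+ICB without the block. The 5 of smallest p were Cxcl14, Cd3g, Ankrd33b, Manf and Tmed9 (edgeR adjusted p from 0.0524 to 0.109). Cxcl14, a chemokine, had 0 UMIs in all 3 BD+ICB tumours, against 5, 5 and 10 UMIs in the ICB tumours, which puts it at least 8.10-fold lower, with the zero taken as 3 counts over the group. Manf, a chaperone of the endoplasmic reticulum, averaged 266 ± 30.9 CPM in BD+ICB and 407 ± 57.9 CPM in ICB tumours (log2 fold -0.63). Apoe, apolipoprotein E, a gene of lipid-laden macrophages, had 1438, 949 and 1235 CPM in BD+ICB tumours, against 2707, 3050 and 2014 CPM in ICB tumours, without overlap (log2 fold -1.10, edgeR adjusted p = 0.160).

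Several of the genes with negative folds belong to other cells. Of the T and NK cell markers, 4 of 12 could be tested and all 4 had negative folds (median -2.92). Cd3g had 0 UMIs in all 3 BD+ICB tumours, against 8, 6 and 7 in the ICB tumours, at least 8.50-fold lower on the same floor. The 12 T and NK markers summed to 7.84 to 10.8 CPM in BD+ICB tumours, against 40.6 to 121 CPM in ICB tumours. T and NK cells were 16.1% to 36.7% of all cells in BD+ICB and 9.64% to 21.2% in ICB tumours. Of 11 tested neutrophil markers 10 had negative folds (median -1.45). S100a8 had 247, 664 and 109 CPM in BD+ICB tumours, against 555, 2264 and 410 CPM in ICB tumours (log2 fold -1.63, edgeR adjusted p = 0.777), and passed as lower with the block. The 12 neutrophil markers summed to 6454 to 9530 CPM in BD+ICB and 7169 to 11736 CPM in ICB tumours, most of it Cxcl2, a chemokine that monocytes also make. Without Cxcl2 the other 11 summed to 635, 1390 and 500.4 CPM in BD+ICB tumours, against 1757, 5122 and 1128 CPM in ICB tumours, a sum taken after the data were seen. The neutrophil shares of these tumours are given above. The part of RNA from other cells in these folds was not tested.

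The markers of the class itself went both ways. Of 18 classical monocyte genes 0 passed and the median log2 fold was -0.10. Vcan averaged 387 ± 91.2 CPM in BD+ICB and 439 ± 104 CPM in ICB tumours. Chil3 had lower levels in BD+ICB (503 to 1063 CPM, against 1160 to 1604 CPM in ICB, without overlap) and Plac8 higher ones (3446 to 5914 CPM, against 2143 to 3567 CPM), but neither passed (edgeR adjusted p = 0.576 and 0.632). With the replicate block Plac8 passed as higher (log2 fold 0.70, edgeR adjusted p = 1.36e-08) and Thbs1 as lower (log2 fold -0.43, edgeR adjusted p = 0.00419). Of 16 macrophage markers 13 could be tested, with 0 passing and a median of 0.02.

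Genes tied to ketone bodies did not pass. Hcar2, the receptor for β-hydroxybutyrate and niacin, averaged 44.9 ± 16.8 CPM in BD+ICB and 55.2 ± 27.9 CPM in ICB tumours; across all tumours with 10 cells it averaged 51.1 ± 20.4 CPM, against 2311 CPM in Hilpda+ neutrophils. Of the list for ketone body use and transport 9 of 14 genes could be tested, 0 passed and the median was -0.03. Oxct1, the enzyme that commits ketone bodies to oxidation, had a log2 fold of 0.44 ± 0.28 and Slc16a3, a monocarboxylate transporter, -0.09 ± 0.15. Of 8 tested histone deacetylases 0 passed (median -0.07), and of 11 genes listed as raised by deacetylase inhibitors 0 passed (median -0.12). Oxidative phosphorylation (0 of 21 passed, median -0.06) and glycolysis (0 of 17, median 0.01) were alike close to the median of all genes.

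Between BD and SD tumours few cells stood behind each value, so tumours with at least 5 Vcan+ monocytes were used, which leaves out BD 2. Of 4669 genes 1 was called, higher in BD (0.0214% of genes tested). It was AA467197, an expressed sequence with no gene name of its own in the files, outside the rule for named genes and named here after its value was seen, with 39 and 72 UMIs in BD 1 and BD 3 and 17, 22 and 14 UMIs in the SD tumours, or 1056 and 1495 normalised CPM, against 267, 385 and 413 CPM (log2 fold 1.89 ± 0.32, edgeR adjusted p = 0.0211). With the replicate block 3 genes were called. DESeq2 called 44 and edgeR without a low-count filter 13. None of the 13 genes called under blockade passed here. B2m had 2626 and 1661 CPM in BD, against 2595, 1523 and 1474 CPM in SD tumours, with overlapping groups (log2 fold 0.18 ± 0.23). The MHC class II list again leaned upward, with 7 of 8 folds positive and a median of 2.07, and 0 passed. H2-Aa had 51 and 176 UMIs in the BD tumours, against 40, 42 and 1 in the SD tumours. BD 2, outside this fit, had 1 H2-Aa UMI and 0 of Cd74, and its list sum of 2636 CPM of total UMIs lay below SD 1 (7065 CPM) and SD 2 (7735 CPM) and above SD 3 (1835 CPM).

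With the diet taken over both libraries, 4 of 4669 genes passed (0.0857%), 3 higher (0.0643%) and 1 lower (0.0214%). AA467197 was higher with butanediol in either library: 3166, 3121 and 3503 CPM in BD+ICB, against 1010, 1810 and 2241 CPM in ICB tumours (log2 fold over both 1.42 ± 0.19, edgeR adjusted p = 7.76e-04). Malt1, a scaffold protease of NF-kB signalling, had 190 and 291 CPM in BD, against 78.7, 70.0 and 0 in SD tumours, and 781, 654 and 761 CPM in BD+ICB, against 382, 505.5 and 524 CPM in ICB tumours (log2 fold 1.36 ± 0.28, edgeR adjusted p = 0.0488). Gda, guanine deaminase, was higher too (log2 fold 1.10 ± 0.23, edgeR adjusted p = 0.0490). Plin2, a coat protein of lipid droplets, had 298 and 228 CPM in BD, against 960, 648 and 619 CPM in SD tumours, and 611, 572 and 572 CPM in BD+ICB, against 653, 704 and 759 CPM in ICB tumours (log2 fold -0.90 ± 0.18, edgeR adjusted p = 0.0488). The 2-cell tumour BD 2, outside this fit, had 23 Plin2 UMIs, or 1732 CPM of its total UMIs, above every other tumour. The 4 calls became 0 with limma-voom and 7 with the replicate block, and ranged from 1 to 13 over the fits without 1 tumour. Whether the diet effect differed between the libraries was tested for the same genes: 0 of 4669 passed (0%), with 309 at an unadjusted p of 0.05, and DESeq2 called 12.

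**Figure D5:**
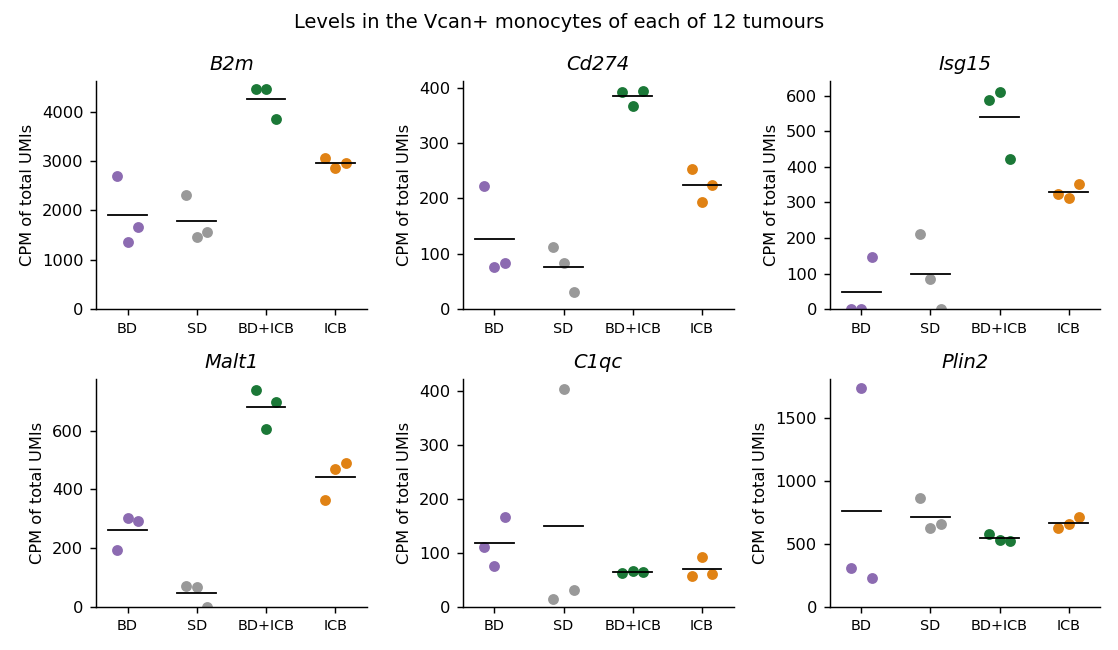
Level of 6 genes (CPM of total UMIs) in the Vcan+ monocytes of all 12 tumours, 1 point per tumour and the group mean as a black line; BD 2 has 2 cells and the BD and SD points rest on 2 to 10 cells each. B2m, Cd274, Isg15 and Malt1 are highest in BD+ICB, the highest C1qc point is SD 2 alone, and the highest Plin2 point is the 2-cell tumour BD 2.

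The tumours under blockade also differed from those without it, a comparison in which library and treatment cannot be told apart. Against SD, of which 1 tumour had at least 10 Vcan+ monocytes, 38 of 7238 genes passed in ICB (0.525%), 34 higher (0.47%) and 4 lower (0.0553%); the fit takes the spread of this single SD tumour from the other groups. The median log2 fold of all genes was 0.33 in this fit and 0.00 with DESeq2, so folds are to be read against that shift. Of 17 MHC class I genes 5 passed as higher (B2m, H2-K1, Tapbp, Psmb8 and Calr), and all 17 folds were positive. B2m had 3090, 2965 and 3060 CPM in ICB tumours, against 1294 CPM in SD 2 (log2 fold 1.23 ± 0.13, edgeR adjusted p = 1.06e-04). Isg15 (log2 fold 2.19 ± 0.44), Irf1 (2.45 ± 0.50), Cd44, a hyaluronan receptor (1.31 ± 0.21), and Malt1 (2.93 ± 0.43) were also higher. These folds too rested on SD 2: in CPM of total UMIs, B2m had 2868 to 3060 CPM in ICB tumours, against 2322, 1460 and 1555 CPM in SD 1, SD 2 and SD 3, and Isg15 had 312 to 351 CPM, against 211, 83.9 and 0 CPM. In the fit with tumours of 5 cells or more, which holds all 3 SD tumours, B2m had a log2 fold of 0.74 (edgeR adjusted p = 0.0711) and Isg15 of 1.48 (edgeR adjusted p = 0.293), and neither passed. C1qc and C1qb, chains of complement C1q, were lower (log2 fold -2.38 ± 0.39 and -2.30 ± 0.39), but this rested on SD 2: C1qc had 57 to 92 CPM of total UMIs in ICB tumours, against 403 CPM in SD 2, 14.1 CPM in SD 1 and 31.1 CPM in SD 3. With tumours of 5 cells or more 22 genes passed, and with the replicate block 59. With limma-voom 0 genes passed as higher and 5 as lower, so none of the higher calls passed there.

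BD+ICB tumours stood apart from BD tumours likewise, in the fit with at least 5 cells: 31 of 4669 genes passed (0.664%), 27 higher (0.578%) and 4 lower (0.0857%). B2m (log2 fold 1.10 ± 0.22), H2-K1 (1.04 ± 0.23), H2-D1 (0.89 ± 0.20), Gbp7, an interferon-induced GTPase (4.25 ± 0.91), Cd274 (1.54 ± 0.38) and Malt1 (1.58 ± 0.33) were among those higher. Mif, a secreted cytokine, was lower (-1.35 ± 0.27). The BD side was BD 1 and BD 3, with 5 Vcan+ monocytes each, and Cd274 had 8 and 4 UMIs there. The median log2 fold of all genes was 0.15 in this fit, -0.34 with DESeq2 and 1.13 without a low-count filter. Folds are to be read against that shift. The replicate block gave 53 genes, limma-voom 0 higher and 2 lower, and the fits without 1 tumour between 1 and 62. This comparison shares the BD+ICB tumours with the diet comparison under blockade, so the folds of B2m and Cd274 in both are not independent.

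The diet effect under blockade was set against that in 3 other classes, with a term for each tumour. Against Trem2+ M2 macrophages 1 of 5579 genes differed (0.0179%), with the effect in Vcan+ monocytes higher. Against M1 macrophages 5 of 6979 differed (0.0716%), 3 with a higher effect in Vcan+ monocytes (0.043%) and 2 with a lower one (0.0287%). Against Cxcr2+ neutrophils 19 of 4962 differed (0.383%), 4 higher (0.0806%) and 15 lower (0.302%). None of the 13 genes called in Vcan+ monocytes was among them. In fits of each class alone, BD+ICB against ICB gave 0 of 2980 genes in Trem2+ M2 macrophages (0%; 178 at an unadjusted p of 0.05), 11 of 7073 in M1 macrophages (0.156%) and 6 of 2194 in Cxcr2+ neutrophils (0.273%). B2m had a log2 fold of 0.55 in Vcan+ monocytes, 0.38 in Trem2+ M2 macrophages, 0.42 in M1 macrophages and 0.86 in Cxcr2+ neutrophils. Cd274 had 0.80, 0.80, 0.43 and 0.94 in the same classes. Isg15 had 0.73, 0.36, 0.42 and 1.26, the last of which passed in neutrophils (edgeR adjusted p = 0.0309). The smallest p of the 13 was that of Oasl1 against M1 macrophages (log2 fold 1.88 in Vcan+ monocytes and 0.30 in M1 macrophages, difference 1.62 ± 0.39, edgeR adjusted p = 0.170). These genes were thus not shown to respond otherwise in Vcan+ monocytes than in the other classes, and that p-value does not show that they responded alike. In levels, B2m ranked 10 of 18 classes in Vcan+ monocytes, behind Ifit+ monocytes at 8128 CPM, and Isg15 ranked 6, behind Ifit+ neutrophils at 3884 CPM.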

How the data were processed

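Single-cell RNA and hashtag libraries of 12 tumours were used. The deposited counts are UMIs per gene and cell from Cell Ranger 6.1.1, per the file headers, on mm10, per the submitters' processing notes; how the cells were filtered is not stated in the labels. The authors' deposited percent of mitochondrial UMIs was under 5 in every cell. Class, tumour and treatment came from the authors' deposited table of cells. Members and gene lists were chosen with earlier results of these data known. No doublet caller was run, and free RNA was not subtracted.

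UMI counts of the Vcan+ monocytes were summed per tumour. Tumours with at least 10 cells were tested with edgeR 4.0.16 (R 4.3.3; TMM scaling, filter on low counts, quasi-likelihood test, Benjamini-Hochberg adjustment over all genes tested, threshold 0.05). BD against SD, diet over both libraries, BD+ICB against BD and the difference between libraries could not be fitted at 10 cells and used 5; the last was added after seeing the data. BD+ICB against ICB and ICB against SD used SD 2 and the 6 blockade-library tumours, so BD was not in those fits. Shares were compared by exact two-sided permutation, adjusted over 19 classes. Alternatives were DESeq2 1.42.0, limma 3.58.1, other scaling, filters, cell minimums and hashtag rules, and leaving out each tumour.

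In the blockade library the deviations of same-numbered tumours from their group means were weakly correlated (0.223, 0.118 and 0.226 over 2782 genes). The numbers, which come from the labels, were taken as pairs in a replicate block. The pairing rests on this correlation alone, since no shared litter or day is given. It was taken from the same Vcan+ monocyte counts, and tumours of unlike number were not correlated. It therefore cannot show that the pairing is real, and calls with the block are an alternative only. Named genes were up to 10 called in each direction, the 5 of smallest p where fewer than 5 passed, called and abundant list members, and a set of 17 genes. Summed depths ran from 13279 to 1231148 UMIs, and intervals cover counting error only.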

Additional observations from a re-analysis of the deposited data

Results flagged for a closer look

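The diet effect under blockade, BD+ICB over ICB, differed between Vcan+ monocytes and another class for a few genes by a direct test of the difference (edgeR quasi-likelihood test with a term for each tumour, 3 tumours a group). Against Trem2+ M2 macrophages it differed for 1 gene, Gatm, which makes the creatine precursor guanidinoacetate: its log2 fold was 0.91 in Vcan+ monocytes and -1.54 in the macrophages, a difference of 2.62 ± 0.41 SE (edgeR adjusted p = 0.0108).

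Against Cxcr2+ neutrophils it differed for 19 genes. The difference was positive for Igfbp6 (3.31), Tspo (1.46), Nos2 (3.05) and Tgfbi (1.37). Log2 folds of Igfbp6, Tspo and Tgfbi were -0.23, 0.25 and 0.29 in Vcan+ monocytes, against -3.41, -1.13 and -0.97 in the neutrophils. Nos2 had 1.64 in Vcan+ monocytes and was not tested in the neutrophils alone. The difference was negative for Ccl3 (-1.99), Retnlg (-3.63), Mmp9 (-3.47), Il23a (-3.54) and Bcl2a1b (-1.55). In that order, their log2 folds were -0.81, -6.02, -3.23, -2.83 and -0.05 in Vcan+ monocytes. In the neutrophils they were 1.32, -2.15, 0.54, 1.05 and 1.63. Retnlg had a UMI in 2.40% of Vcan+ monocytes and 54.6% of Cxcr2+ neutrophils. Mmp9 rested on 2, 1 and 1 UMIs in the Vcan+ monocytes of BD+ICB tumours, against 2, 13 and 17 in ICB tumours. The part of free RNA in Retnlg and Mmp9 was not tested.

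Against M1 macrophages it differed for 5 genes: Ifi207 (1.06), Cx3cr1 (2.70) and Tmem176a (2.83) with a positive difference, Gcsh (-1.60) and Fabp4 (-4.98) with a negative one. Cx3cr1, the fractalkine receptor, had a log2 fold of -0.61 in Vcan+ monocytes and -3.48 in M1 macrophages. Ifi207 had 0.37 and -0.70, and Gcsh -0.85 and 0.73, in the same classes. Tmem176a and Fabp4 had -0.27 and -2.13 in Vcan+ monocytes and were not tested in M1 macrophages alone. Fabp4 had few UMIs in Vcan+ monocytes: 2, 5 and 1 in BD+ICB tumours, against 4, 4 and 25 in ICB tumours.

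Outside the deposited table of cells, 48 barcodes were placed with the Vcan+ monocytes when the hashtags were reassigned and classes were taken from nearest neighbours. The same procedure returned the deposited class for 89.8% of the Vcan+ monocytes.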

How the results depend on the processing

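The sign of a share difference turned once: BD minus SD was -1.79 points as a share of monocytes and macrophages. For BD+ICB against ICB, 134 genes were called with no filter on low counts, 159 with the replicate block, 7 with tumours of 5 cells, 21 with the stricter hashtag rule and 0 to 37 without 1 tumour. For BD against SD, DESeq2 called 44, no filter 13, limma-voom 0, the block 3, own demultiplexing 2, the library's own tumours 0, and the fits without 1 tumour 0 to 7. For diet over both libraries, DESeq2 called 47, no filter 14, limma-voom 0, the block 7, and the fits without 1 tumour 1 to 13. For ICB against SD, no filter called 87, limma-voom 5 (0 higher), the block 59, 5 cells 22, own demultiplexing 16, and the fits without 1 tumour 16 to 38. For BD+ICB against BD, no filter called 160, limma-voom 2 (0 higher), the block 53, and the fits without 1 tumour 1 to 62. For the difference between libraries, DESeq2 called 12, no filter 6, and the fits without 1 tumour 0 to 7. The class differences without 1 tumour ranged from 0 to 9 (Trem2+), 12 to 30 (Cxcr2+) and 1 to 15 (M1). The causes were not tested. The block moved no other count by over 1.5 times. Among named genes, 1625 values under alternatives kept their direction and side of the threshold, 586 no longer passed, 86 newly passed and 0 reversed. The BD and SD tumours, at 2 to 10 cells each, limit what can be detected there.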
